A study of Homo sapiens with 2 samples.

Results

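E-cadherin (CDH1) and its transcriptional repressor ZEB1 stood in opposite directions in cisplatin-resistant and parental SBC5 cells, and 6 further genes of epithelial or mesenchymal character are described with them. These 8 genes (CDH1, ZEB1, CDS1, TJP3, VIM, CALD1, CD24 and SFN) were taken by name from the 12494 gene names in the deposited table. Each had 1 locus there. They were chosen by their FPKM in the same 2 libraries, so their differences are a description and carry no test. SBC5 is an established small cell lung cancer line. The resistant group was a derivative of SBC5 selected in cisplatin, a platinum drug that crosslinks DNA, at 1, 2, 4 and 20 µg/ml in turn, and the parental group was the line it came from. Both grew in RPMI medium with 10% fetal bovine serum, and whether the derivative is 1 clone or a mixed population is not given in the sources used here. Each group had 1 library of polyadenylated RNA, so no replicate error can be given and every value describes these 2 libraries only.

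Epithelial cells hold together through adherens junctions, built on E-cadherin, and through tight junctions and desmosomes. In an epithelial-mesenchymal transition, factors of the ZEB, SNAI and TWIST families repress CDH1 and other epithelial genes, and cells gain vimentin filaments and an actin cytoskeleton suited to migration. ZEB1 and the microRNAs of the miR-200 family repress each other, so a cell tends to hold one or the other. Lung cancer cell lines differ widely along this axis.

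Levels were listed as FPKM, fragments counted per unit of locus length and of library size, a scale on which genes of different length can be compared. The table summed to 1081047 FPKM in the resistant and 1019555 FPKM in the parental library, and the number of reads behind a value is unknown. For a log2 ratio, 1 was added to each FPKM and the resistant value was divided by the parental one. Of all names 12405 reached 1 FPKM in at least 1 library and were compared. All 8 members passed this filter. CDH1, at 4.81 FPKM in resistant and 0.536 FPKM in parental cells, passed only through the resistant library, so the filter alone set its direction. A gene at or past 1 or -1 is called past 2-fold, a rule of size and not a test, and the median log2 ratio of all genes was -0.04. Of the neuroendocrine and subtype markers of small cell lung cancer 11 of 18 were measured, with a median log2 ratio of 0.05 (-0.04 with the libraries scaled to an equal sum). Among these UCHL1 had 259 FPKM in resistant and 251 FPKM in parental cells, and SYP had 8.62 and 8.56 FPKM in resistant and parental cells, while NEUROD1, POU2F3, INSM1 and CHGA were not analysed here. SCG2, a granule protein, was past 2-fold, at 20.1 FPKM in resistant and 109 FPKM in parental cells. In RNA from whole cultures, fewer cells of a type and less RNA per cell cannot be told apart.

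Of the 8 members, 5 were past 2-fold higher in resistant cells, 2 were past 2-fold lower, and VIM lay within 2-fold. Among all genes compared 3.28% were past 2-fold higher and 2.7% past 2-fold lower, 5.98% in either direction. The higher members were CDH1, TJP3, CDS1, CD24 and SFN, and the lower ones were ZEB1 and CALD1. In resistant cells the members ran from VIM through SFN, CD24, CDS1, TJP3, CALD1 and CDH1 to ZEB1 at the lowest level. In parental cells the order was VIM, SFN, CALD1, ZEB1, CD24, CDS1, TJP3 and CDH1. CDH1 and ZEB1 thus stood in opposite order: the FPKM of CDH1 was 1.18 times that of ZEB1 in resistant cells and 0.0390 times in parental cells.

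**Figure D1:**
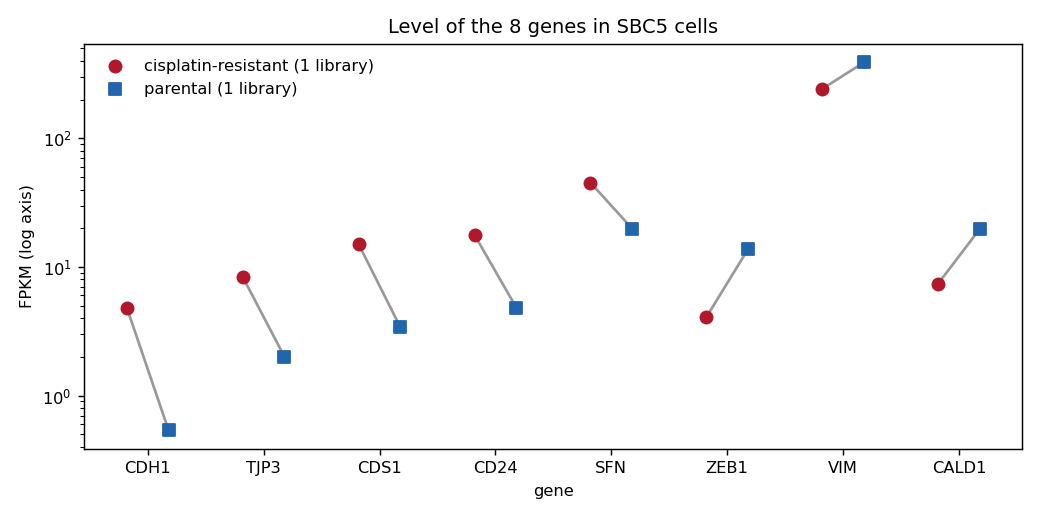
Each point is the FPKM (log axis) of 1 gene in the cisplatin-resistant library (red circle) or the parental library (blue square), with 1 library per group and no error bars. The 5 genes on the left are higher in resistant cells, with CDH1 at 4.81 FPKM in resistant and 0.536 FPKM in parental cells, and ZEB1, VIM and CALD1 are lower.

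ZEB1 is a zinc finger protein that binds the E-box CACCTG and recruits corepressors. It had 4.06 FPKM in resistant cells and 13.8 FPKM in parental cells. The resistant library was the lower one, with a log2 ratio of -1.54. Of the 4673 genes whose mean FPKM was within 2-fold of its own, 58 had a lower log2 ratio. In resistant cells 17.5% of the genes compared lay below ZEB1 in level, and in parental cells 48.4% did. The gene lies on the plus strand of chromosome 10 from 31318495 to 31529814 in GENCODE release 29 on hg38. Its antisense gene ZEB1-AS1, which overlaps its start from the other strand, had 3.34 FPKM in resistant and 6.44 FPKM in parental cells (log2 ratio -0.78). The libraries keep strand, but whether counting used it is not given in the sources used here, so reads of such a pair may not be fully separated.

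Other measured factors that drive the transition lay within 2-fold, except SNAI3 (1.17) with a pseudocount of 0.1. Of 13 listed factors 6 were measured and ZEB1 was past 2-fold, with a list median of 0.02 that turned to -0.06 with the libraries scaled to an equal sum. With a filter of 5 FPKM, which left 4 of them, the median was -0.17. TWIST1 had 29.9 FPKM in resistant and 21.8 FPKM in parental cells (log2 ratio 0.44). SNAI1 had 4.38 FPKM in resistant and 4.20 FPKM in parental cells (0.05). SNAI3 (0.80), TCF3 (-0.02) and TCF4 (-0.33) also lay within 2-fold, and ZEB2, SNAI2 and TWIST2 were not analysed here. The level of TWIST1 was 7.37 times that of ZEB1 in resistant cells and 1.58 times in parental cells.

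ZEB1 acts with partners. Of 13 genes listed for these 12 were measured, with a median of -0.10. That count includes the antisense gene ZEB1-AS1 (-0.78), which is not a protein partner. The corepressor CTBP1 had 64.1 FPKM in resistant and 75.4 FPKM in parental cells, and CTBP2 had 77.2 and 82.6 FPKM in resistant and parental cells. YAP1, a coactivator that can bind ZEB1, had 84.7 FPKM in resistant and 76.6 FPKM in parental cells. RCOR1, a scaffold of the corepressor complex around KDM1A, was the 1 partner past 2-fold, at 49.2 FPKM in resistant and 104 FPKM in parental cells (log2 ratio -1.06). It moved to -0.99 when the libraries were scaled to equal sums without the MTRNR2L loci, which resemble mitochondrial ribosomal RNA and took a larger share of the resistant table.

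A single locus named for a microRNA of the miR-200 family was in the table. The locus named MIR141 had 12.1 FPKM in resistant and 3.04 FPKM in parental cells, with a log2 ratio of 1.70. The libraries were made from polyadenylated RNA, so the value is not one of the mature microRNA, and which transcript the locus counts is not given in the sources used here. In the order of the table this locus stood between PTPN6 (16.8 FPKM in resistant, 10.5 FPKM in parental cells) and EMG1 (70.5 and 88.7 FPKM in resistant and parental cells), its neighbours on chromosome 12. The other 7 listed names of miR-200 and miR-205 genes and hosts were not analysed here. The mature sequences of the family, from RefSeq on GRCh38.p14, are shown because their seeds (bases 2 to 8, in capitals) fall into 2 groups that differ in 1 base.
hsa-miR-141-3p: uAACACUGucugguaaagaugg
hsa-miR-200a-3p: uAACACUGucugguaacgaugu
hsa-miR-200b-3p: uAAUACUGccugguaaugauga
hsa-miR-200c-3p: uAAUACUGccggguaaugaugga
hsa-miR-429: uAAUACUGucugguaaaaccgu

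The longest annotated 3′ UTR of ZEB1 in GENCODE release 29, of 2549 bases, held 9 matches to these seeds on the transcribed strand. The match to AAUACUG, written CAGTATT in DNA letters, occurred 6 times, and the match to AACACUG, written CAGTGTT, occurred 3 times. Of 2385 other 3′ UTRs within 20% of that length, 46.5% held at least 1 match, their median was 0 and their highest count was 5. The 3′ UTRs of CDH1, TJP3, VIM, CD24 and SFN held 0 matches, that of CDS1 held 1 and that of CALD1 held 2. Among 3′ UTRs within 20% of the length of those of CDH1 and CALD1, 37.9% and 43.2% held at least 1. For CD24 and CDS1 these shares were 33.7% and 48.4%. The 3′ UTRs of TJP3, VIM and SFN had only 129, 322 and 498 bases. Of others within 20% of those lengths 1.65%, 4.41% and 7.48% held a match, so a count of 0 there says little. Sites in ZEB1 are shown as 22 bases on the plus strand of hg38, with the seed match in capitals. The first pair matches miR-200b, miR-200c and miR-429, and the second pair matches miR-141 and miR-200a.
ZEB1 chr10:31527619-31527640: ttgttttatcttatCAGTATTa
ZEB1 chr10:31527713-31527734: tgctaaatccgcttCAGTATTt
ZEB1 chr10:31528032-31528053: aaaatcatcagaatCAGTGTTt
ZEB1 chr10:31528783-31528804: gagatttgatttaaCAGTGTTa
A match is a run of letters, and binding was not measured.

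CDH1 encodes E-cadherin, the adhesion molecule of adherens junctions. It had 4.81 FPKM in resistant and 0.536 FPKM in parental cells. The resistant library was higher, 8.96 times on the FPKM scale and with a log2 ratio of 1.92, which is smaller because 1 is added to both values. Of the genes compared, 20.6% lay below CDH1 in resistant cells and 1.06% in parental cells, so its level remained in the lower part of the range. Among 2421 genes with a mean FPKM within 2-fold of its own, 31 had a higher log2 ratio, and 95% lay between -1.32 and 1.52. With a pseudocount of 5 the log2 ratio of CDH1 was 0.82, short of 2-fold. The gene lies on the plus strand of chromosome 16 from 68737225 to 68835548.

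**Figure D2:**
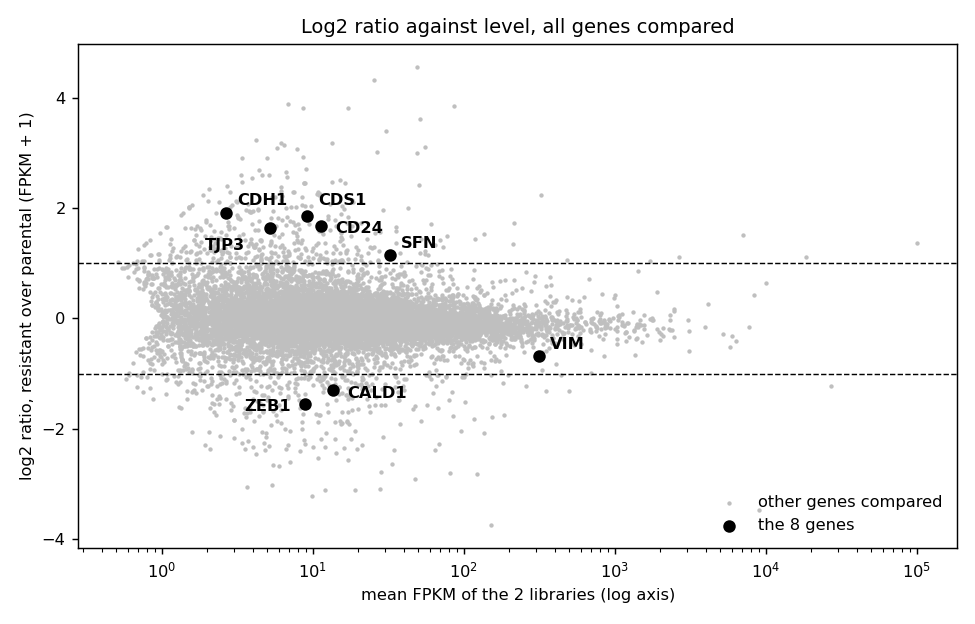
Log2 ratio (resistant over parental, 1 added to each FPKM) against the mean FPKM of the 2 libraries (log axis) for the 12405 genes compared, with the 8 genes in black and the 2-fold limits dashed. The spread of all genes is wider at low levels, where CDH1 lies, than at the level of VIM, which lies within 2-fold at -0.68.

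CDH1 was 1 of 7 measured of 17 listed classical cadherins, and was past 2-fold higher, with CDH8 past 2-fold lower. The list median was 0.51 with CDH1 and -0.06 without it. With CDH1 it was 0.20 at a pseudocount of 5. A filter of 5 FPKM gave -0.75 and left 2 cadherins without CDH1. CDH2, or N-cadherin, which often replaces E-cadherin in mesenchymal cells, had 0.770 FPKM in resistant and 2.38 FPKM in parental cells (log2 ratio -0.93). With a pseudocount of 0.1, CDH2 (-1.51), CDH7 (-1.11) and CDH22 (1.00) were past 2-fold too. The FPKM of CDH1 was 6.24 times that of CDH2 in resistant cells and 0.225 times in parental cells. CDH8 had 0.744 FPKM in resistant and 6.004 FPKM in parental cells (-2.01, and -0.94 with a pseudocount of 5). CDH12 (0.55), CDH22 (0.57) and CDH24 (0.51) lay above 0 and CDH7 (-0.64) below. CDH3 was not analysed here.

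The catenins, which tie E-cadherin to actin, lay within 2-fold. Of 15 listed adherens junction genes 13 were measured, CDH1 was past 2-fold (with a pseudocount of 0.1 also PVRL3, at -1.36), and the median of -0.05 turned to 0.26 with loci of a name summed and to 0.01 with the sums without MTRNR2L loci made equal. CTNNB1, or beta-catenin, which binds the tail of E-cadherin, had 76.7 FPKM in resistant and 81.1 FPKM in parental cells (log2 ratio -0.08). CTNND1, or p120-catenin, which keeps cadherins at the membrane, shares a locus with TMX2 in the table, and that locus had 98.9 FPKM in resistant and 103 FPKM in parental cells (-0.05). CTNNA1, or alpha-catenin, the link to actin, had 136 FPKM in resistant and 107 FPKM in parental cells (0.35). JUP, or plakoglobin, which also binds cadherin tails, had 44.1 FPKM in resistant and 32.01 FPKM in parental cells (0.45).

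TJP3, or ZO-3, is a scaffold protein of tight junctions. It had 8.34 FPKM in resistant and 2.00 FPKM in parental cells. The resistant library was higher, with a log2 ratio of 1.64 (0.93 with a pseudocount of 5), and 75 of 3660 genes of like level had a higher one. TJP3 lies on the plus strand of chromosome 19 from 3708109 to 3750813.

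Tight junction and polarity genes included 4 past 2-fold higher and 1 past 2-fold lower among 19 measured of 30 listed, with a median of 0.22. With the libraries scaled to an equal sum 2 were past 2-fold higher and the median was 0.14, and with a pseudocount of 5 MARVELD3 was the 1 past 2-fold. TJP3 is in this list and was chosen on these same values. Without TJP3, at the settings reported, 3 of 18 were past 2-fold higher and 1 lower, with a median of 0.21. Among all genes compared these shares were 3.28% and 2.7%. MARVELD3, a membrane protein of tight junctions, had 11.2 FPKM in resistant and 2.39 FPKM in parental cells (log2 ratio 1.84). INADL, the table's name for the polarity scaffold PATJ, had 32.6 FPKM in resistant and 15.6 FPKM in parental cells (1.02), and LLGL2, a polarity protein of the lateral membrane, had 16.8 and 7.87 FPKM in resistant and parental cells (1.01). INADL (0.94) and LLGL2 (0.93) lay within 2-fold with the libraries scaled to an equal sum, and also with a pseudocount of 5. OCLN, or occludin, had 30.6 FPKM in resistant and 17.7 FPKM in parental cells (0.76), while CLDN4 had 10.96 and 10.8 FPKM in resistant and parental cells (0.02). MAGI3, a further scaffold, was lower, at 9.98 FPKM in resistant and 22.7 FPKM in parental cells (-1.11, and -0.88 with a pseudocount of 5).

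Desmosomal genes all lay above 0 at the settings reported, without passing 2-fold. Of 12 listed 8 were measured, with log2 ratios of 0.05 to 0.85 and a median of 0.46 (0.39 with the libraries scaled to an equal sum), against -0.04 over all genes. DSP, or desmoplakin, which anchors keratin filaments, had 9.84 FPKM in resistant and 5.03 FPKM in parental cells (0.85). The desmosomal cadherins DSG2 (0.75) and DSC2 (0.68) and the plakophilin PKP2 (0.45) lay between, and PKP4 (0.05) was the lowest. Scaling to an equal sum shifts log2 ratios by -0.08, which takes PKP4 below 0.

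CDS1 makes CDP-diacylglycerol, the precursor of phosphatidylinositol, and is a gene of epithelial expression signatures. It had 15.0 FPKM in resistant and 3.40 FPKM in parental cells. Its log2 ratio was 1.86, above all but 45 of 4734 genes of like level, and 1.25 with a pseudocount of 5. CDS1 lies on the plus strand of chromosome 4 from 84582979 to 84651338. CDS2, which carries out the same reaction, had 12.5 FPKM in resistant and 12.2 FPKM in parental cells (0.03). The FPKM of CDS1 was 1.20 times that of CDS2 in resistant cells and 0.279 times in parental cells. Of 20 listed genes of this lipid pathway 19 were measured, CDS1 was past 2-fold, and the median of -0.03 turned to 0.01 after division by the median ratio and to 0.03 with the sums without MTRNR2L loci made equal. With loci of a name summed LPIN3, a phosphatidate phosphatase, also passed, at 18.9 FPKM in resistant and 7.89 FPKM in parental cells (1.16).

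CD24 is a small surface protein, heavily glycosylated and held by a lipid anchor, and a marker of epithelial cells. It had 17.7 FPKM in resistant and 4.84 FPKM in parental cells, with a log2 ratio of 1.68 (1.21 with a pseudocount of 5). The resistant library was the higher one, and 59 of 4900 genes of like level had a higher log2 ratio. It lies on the minus strand of chromosome 6 from 106969831 to 106975627. CD24 has processed pseudogenes on other chromosomes, and how reads shared with them were counted is not given in the sources used here. Among 10 genes listed as surface and enzyme markers of stem-like cells 6 were measured and CD24 alone was past 2-fold. SIGLEC10 (-0.60), counted in the list, is not itself a marker of such cells. The median of that list was -0.02, and -0.29 without CD24. With CD24 the list median turned to 0.25 with a filter of 5 FPKM, which left 5 genes without SIGLEC10, and to 0.02 after division by the median ratio. It was 0.04 with the sums without MTRNR2L loci made equal, and -0.10 with the libraries scaled to an equal sum. ALDH1A1, an aldehyde dehydrogenase of that list, had 945 FPKM in resistant and 691 FPKM in parental cells (0.45). CD44, often read together with CD24, was not analysed here.

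SFN, or 14-3-3 sigma, is the epithelial member of a family of phosphoprotein-binding proteins and a target of p53. It had 45.3 FPKM in resistant and 19.8 FPKM in parental cells. The log2 ratio of 1.15 was the smallest of the 5 higher members and changed least with the pseudocount, being 1.18 at 0.1 and 1.02 at 5. SFN lies on the plus strand of chromosome 1 from 26863138 to 26864457. Of 7 listed 14-3-3 genes 6 were measured and SFN alone was past 2-fold, with a family median of -0.07. YWHAQ had 306 FPKM in resistant and 401 FPKM in parental cells (-0.39) and YWHAZ had 301 and 329 FPKM in resistant and parental cells (-0.13). YWHAQ was 6.76 times SFN in resistant cells and 20.2 times in parental cells. Among 19 measured of 20 listed p53 targets SFN alone was past 2-fold, with a median of 0.18, and CDKN1A, the inhibitor p21, had 2.54 FPKM in resistant and 1.66 FPKM in parental cells (0.42).

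Epithelial surface genes and keratins were 9 of 25 measured, all above 0, with 5 past 2-fold higher and a median of 1.10. The list holds CDS1, CD24 and SFN, which were chosen on these same values. Of the other 6 genes 2 were past 2-fold higher, against 3.28% of all genes compared, and their median was 0.73. MAL2 (1.12 FPKM in resistant, 0.188 FPKM in parental cells) passed the filter only through the resistant library, so its place above 0 was fixed by the filter. With a pseudocount of 5 the list median was 0.62 and 3 genes were past 2-fold. MUC1, a membrane mucin, had 8.47 FPKM in resistant and 2.81 FPKM in parental cells (log2 ratio 1.31), and ITGB4, the integrin of hemidesmosomes, had 6.52 and 2.51 FPKM in resistant and parental cells (1.10). With a pseudocount of 5, MUC1 (0.79) and ITGB4 (0.62) lay within 2-fold. KRT8, the keratin of simple epithelia, had 2.36 FPKM in resistant and 2.09 FPKM in parental cells (0.12). KRT18, KRT19 and EPCAM were not analysed here.

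Factors that maintain epithelial expression differed among themselves, with 6 of 15 measured and a median of 0.55. That median was 0.82 with a pseudocount of 0.1, where 3 genes were past 2-fold higher, 0.31 at a pseudocount of 5, and 0.17 if genes under 5 FPKM were left out. KLF5 had 17.8 FPKM in resistant and 6.24 FPKM in parental cells (log2 ratio 1.37), and OVOL2, a repressor of ZEB1, had 4.13 and 1.73 FPKM in resistant and parental cells (0.91). Summed over its loci OVOL2 had 7.91 FPKM in resistant and 2.18 FPKM in parental cells, past 2-fold at 1.49, and with a pseudocount of 0.1 it was past 2-fold at 1.21. FOXA1, a pioneer factor, went the other way, with 13.4 FPKM in resistant and 29.2 FPKM in parental cells (-1.06, and -0.89 with a pseudocount of 5). ESRP2, a splicing factor of epithelial cells, had 15.6 FPKM in resistant and 16.7 FPKM in parental cells (-0.09). GRHL1 had 215 FPKM in resistant and 160 FPKM in parental cells (0.43), while GRHL2 and ESRP1 were not analysed here. Of 12 genes listed as reported targets of ZEB1 repression, 6 were measured: CDH1, INADL and LLGL2 past 2-fold higher, PPL (0.48), PKP3 (0.26) and ESRP2 within, with a median of 0.74 and of 0.48 without CDH1. Past 2-fold in that list were 0 genes with a pseudocount of 5 and 1 with the libraries scaled to an equal sum.

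**Figure D3:**
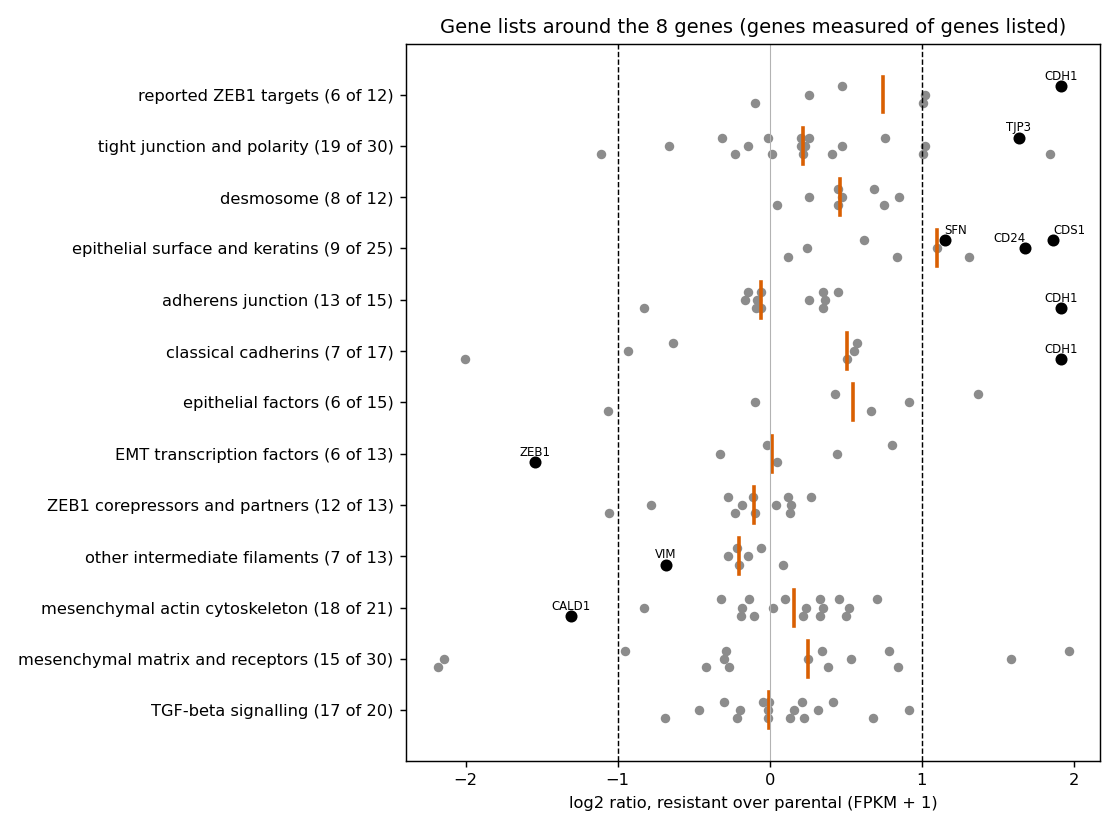
Log2 ratio (resistant over parental, 1 added to each FPKM) for each measured gene of 13 lists, with the 8 genes in black and named, other genes in grey, the median of each list as an orange bar and the 2-fold limits dashed. All 8 measured desmosomal genes lie above 0 without scaling, PKP4 by only 0.05, while ZEB1 and CALD1 lie apart from the other genes of their lists.

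Promoter windows of RefSeq (GRCh38.p14), which run from 250 bases before to 50 bases after an annotated start, were searched for CACCTG on both strands, where the other strand reads CAGGTG. Of 35116 windows of all genes 20.6% held the motif, and of 27305 genes with a window 24.1% had it in at least 1. Windows were given for CDS1, TJP3, CD24 and SFN, 7 in all, and 4 of them held it, 1 for each gene. Among 12 windows of ZEB1, CALD1 and VIM 2 held it, both of ZEB1, and none of CALD1 or VIM did. CDH1 had no window. Windows that hold the motif are shown for the 3 higher members in which it is not at the outer edge, with the motif in capitals.
CDS1 chr4:84582877-84583176, plus strand: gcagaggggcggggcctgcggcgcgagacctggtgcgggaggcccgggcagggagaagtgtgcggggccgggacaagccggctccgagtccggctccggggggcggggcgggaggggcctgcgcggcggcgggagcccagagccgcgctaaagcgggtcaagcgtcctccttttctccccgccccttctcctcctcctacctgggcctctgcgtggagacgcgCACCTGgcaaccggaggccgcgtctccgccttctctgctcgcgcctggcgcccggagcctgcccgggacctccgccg
TJP3 chr19:3721487-3721786, plus strand: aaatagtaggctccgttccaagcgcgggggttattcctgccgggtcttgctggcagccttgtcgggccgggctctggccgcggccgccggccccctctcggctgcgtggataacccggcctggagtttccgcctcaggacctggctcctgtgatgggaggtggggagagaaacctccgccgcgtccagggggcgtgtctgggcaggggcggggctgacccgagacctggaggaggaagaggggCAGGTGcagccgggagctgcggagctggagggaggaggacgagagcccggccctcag
SFN chr1:26862899-26863198, plus strand: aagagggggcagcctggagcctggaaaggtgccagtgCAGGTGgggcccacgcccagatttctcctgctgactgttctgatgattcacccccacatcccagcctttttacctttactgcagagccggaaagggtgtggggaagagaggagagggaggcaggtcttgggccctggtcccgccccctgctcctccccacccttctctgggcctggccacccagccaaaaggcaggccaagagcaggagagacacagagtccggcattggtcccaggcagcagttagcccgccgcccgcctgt
In bases relative to the start, the motif begins at -27 in CDS1, -7 in the second of the TJP3 windows and -213 in SFN. The match in CD24 begins at -249. These are matches of letters, and ZEB1 binding was not measured.

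VIM encodes vimentin, the intermediate filament of mesenchymal cells. It had 242 FPKM in resistant and 389 FPKM in parental cells. The resistant library was lower, with a log2 ratio of -0.68, within 2-fold, and 13 of 463 genes of like level had a lower one. Vimentin stayed among the abundant transcripts, with 97.2% of genes below it in resistant and 98.3% in parental cells. The FPKM of VIM was 50.4 times that of CDH1 in resistant cells and 726 times in parental cells. VIM lies on the plus strand of chromosome 10 from 17228259 to 17237593, and its antisense gene VIM-AS1 had 128 FPKM in resistant and 217 FPKM in parental cells (-0.76). The quotient of VIM over VIM-AS1 was 1.90 in resistant and 1.79 in parental cells. Other intermediate filament genes, 7 of 13 measured with VIM, were all short of 2-fold. Their median was -0.20, with NES at 0.09 and LMNA at -0.20.

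CALD1 encodes caldesmon, which binds actin and tropomyosin and restrains myosin. It had 7.41 FPKM in resistant and 19.8 FPKM in parental cells, with a log2 ratio of -1.30 (-0.996 with a pseudocount of 5). The resistant library was the lower one, and 64 of 4971 genes of like level had a lower log2 ratio. The gene lies on the plus strand of chromosome 7 from 134744252 to 134970728. Other measured genes of the actin cytoskeleton lay within 2-fold: of 21 listed 18 were measured, 11 lay above 0 and CALD1 alone was past 2-fold, with a median of 0.16. TPM2, a tropomyosin, had 325 FPKM in resistant and 229 FPKM in parental cells (0.50), TPM1 had 28.1 and 21.8 FPKM in resistant and parental cells (0.35), and MYL9, a myosin light chain, had 231 and 142 FPKM in resistant and parental cells (0.70). MYLK, the kinase of that light chain, had 10.4 FPKM in resistant and 19.1 FPKM in parental cells (-0.83).

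Mesenchymal matrix and receptor genes went both ways. Of 30 listed 15 were measured, with 2 past 2-fold higher, 2 past 2-fold lower and a median of 0.25, which turned to -0.02 with a filter of 5 FPKM and was 0.10 with no filter. The integrin chain ITGA5, within 2-fold at -0.95, passed at -1.02 with the libraries scaled to an equal sum. The collagen COL3A1 had 7.51 FPKM in resistant and 1.18 FPKM in parental cells (log2 ratio 1.97), and POSTN, or periostin, had 3.82 and 0.606 FPKM in resistant and parental cells (1.59, and 0.65 with a pseudocount of 5). The integrin chain ITGB3 had 5.82 FPKM in resistant and 29.9 FPKM in parental cells (-2.18), and the receptor PDGFRA had 10.1 and 48.0 FPKM in resistant and parental cells (-2.14). FN1 was not analysed here. Of genes listed for TGF-beta signalling, a pathway known to drive the transition, 17 were measured and none was past 2-fold. Their median of -0.01 turned to 0.15 with a filter of 5 FPKM, to 0.03 after division by the median ratio and to 0.06 with the sums without MTRNR2L loci made equal. TGFBR2 had 18.9 FPKM in resistant and 11.4 FPKM in parental cells (0.68), and ID1, a target of the related BMP pathway, had 74.0 and 38.8 FPKM in resistant and parental cells (0.92).

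Genes listed as markers of cells other than the cancer line were read beside these values. Fibroblast markers, 6 of 12 measured, summed to 47.3 FPKM in resistant and 78.6 FPKM in parental cells. All 6 are also in the mesenchymal matrix or actin lists above, with the same values, so they cannot tell fibroblasts from the line itself. The lower resistant sum rested on PDGFRA, past 2-fold lower at 10.1 FPKM in resistant and 48.0 FPKM in parental cells. COL3A1 and POSTN were past 2-fold higher, and 4 of the 6 markers lay above 0. The list median of 0.32 turned to -0.30 with a filter of 5 FPKM (3 genes left) and was 0.16 with a pseudocount of 5. Blood cell markers, 2 of 10 measured, summed to 17.3 FPKM in resistant and 28.8 FPKM in parental cells, and HBB had 0.472 and 2.69 FPKM in resistant and parental cells (log2 ratio -1.32, and -0.49 with a pseudocount of 5). None of 10 endothelial markers was among the genes compared. The part of other cells in the results was not tested.

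Genes near the members on their chromosomes were set beside them. Within 1 Mb of the start of any member lay 139 compared genes, of which 5 (3.60%) were past 2-fold higher and 1 (0.719%) past 2-fold lower, against 3.28% and 2.7% of all genes compared. The share past 2-fold higher was thus near that of all genes. Around CDH1 none of 32 neighbours was past 2-fold, with log2 ratios of -0.46 to 0.78 and a median of 0.03. None of 6 around ZEB1 and none of 7 around CALD1 was past 2-fold. CDS1 had 2 compared neighbours, and the nearer, NKX6-1, a homeobox factor gene whose start lies at -84.5 kb from it, had 13.0 FPKM in resistant and 2.46 FPKM in parental cells (2.02). TJP3 had 1 of 41 past 2-fold, ZNF555 (14.9 FPKM in resistant, 2.89 FPKM in parental cells). VIM had 1 of 10, ST8SIA6 (102 and 37.3 FPKM in resistant and parental cells), SFN had 2 of 32, SYTL1 (1.09) and CNKSR1 (1.20), and CD24 had 1 of 9, PRDM1 (-1.42).

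**Figure D4:**
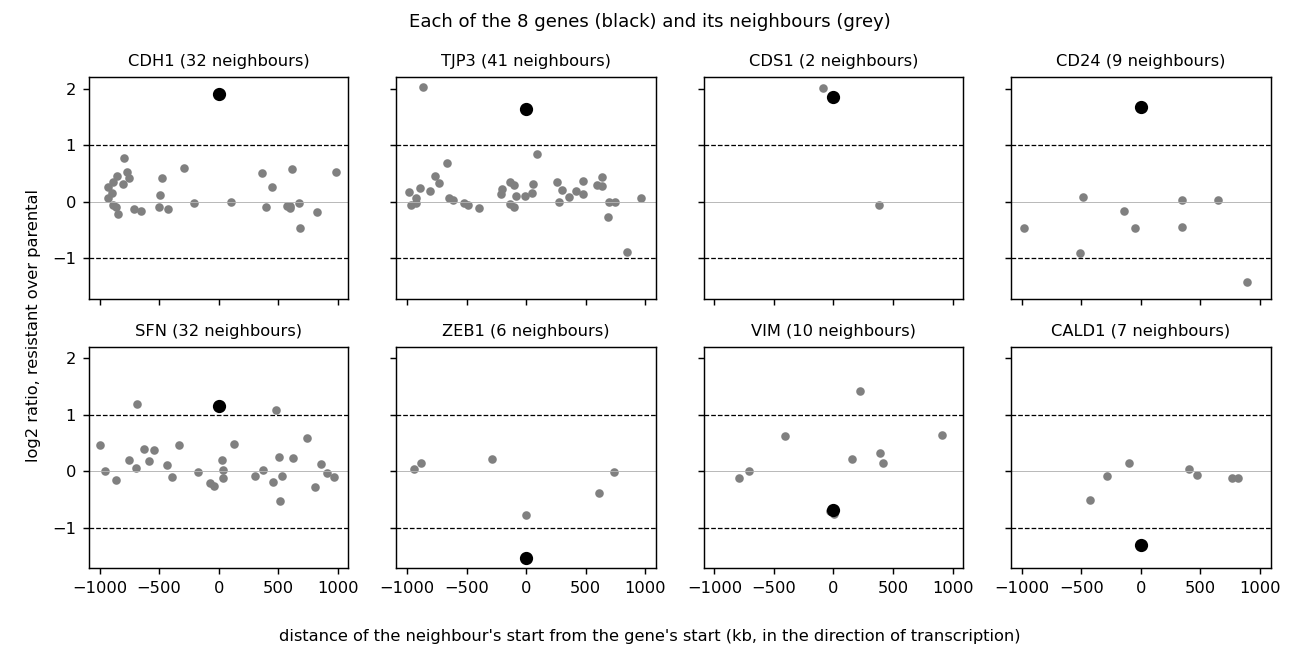
Log2 ratio of each of the 8 genes (black) and of compared genes whose start lies within 1000 kb of its start (grey), against distance in kb in the direction of transcription, with the 2-fold limits dashed. The 32 neighbours of CDH1 lie between -0.46 and 0.78, whereas CDS1 has NKX6-1 beside it at 2.02.

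With 2 libraries a pattern is 1 ratio, so likeness was taken as the smallest difference in log2 ratio among genes whose mean FPKM lay within 2-fold. Nearest to CDH1 among 2421 such genes were CBLB, a ubiquitin ligase (4.20 FPKM in resistant, 0.383 FPKM in parental cells, log2 ratio 1.91), SLC22A4, a carnitine and ergothioneine transporter (2.75 FPKM in resistant cells, listed at 0 in parental cells), and COL26A1 (6.65 FPKM in resistant, 1.01 FPKM in parental cells, 1.93). For ZEB1 the nearest among 4673 were the glycolytic enzyme ALDOC (5.81 FPKM in resistant, 19.0 FPKM in parental cells, -1.55), C1orf56 (1.82 FPKM in resistant, 7.29 FPKM in parental cells, -1.56) and the splicing regulator MBNL2 (2.52 FPKM in resistant, 9.40 FPKM in parental cells, -1.56).

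The precision of single values was examined through the ratios of low loci. Where few reads lie behind 2 values, their quotient is one of small whole numbers times a factor common to the table, here 0.996. Of 7591 loci that were detected in both libraries at under 5 FPKM, 52.9% had such a quotient with numbers up to 20 (relative tolerance 2e-05). None of the 8 members had such a quotient, but only CDH1 was under 5 FPKM in both libraries. With numbers up to 20, few ratios could match its quotient of 8.96, so this says little about its precision. The reads behind the members stay unknown. The pseudocount matters most for the low members: at 0.1, 1 and 5 the log2 ratio was 2.95, 1.92 and 0.82 for CDH1, 2.01, 1.64 and 0.93 for TJP3, and -1.74, -1.54 and -1.05 for ZEB1. VIM, the most abundant, had -0.68, -0.68 and -0.67.

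**Figure D5:**
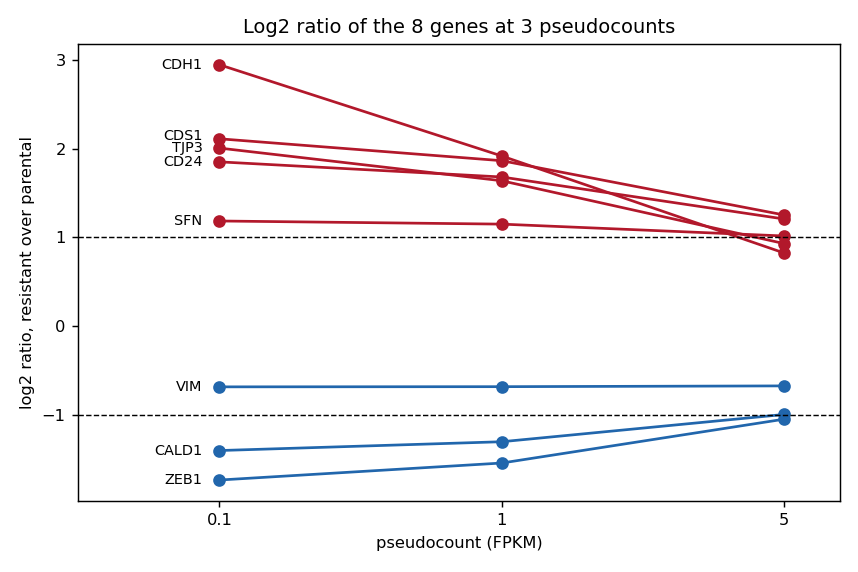
Log2 ratio of resistant over parental FPKM for each of the 8 genes with a pseudocount of 0.1, 1 or 5 FPKM, red for genes above 0 and blue for genes below 0, with the 2-fold limits dashed. All 8 keep their sign; CDH1, TJP3 and CALD1 lie within 2-fold at 5.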

How the data were processed

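Polyadenylated RNA of 1 resistant and 1 parental SBC5 culture was sequenced from stranded libraries, per the labels' protocols. The authors deposited a table of FPKM for 19217 loci, which by the labels' descriptions has 1 column per library. Per the submitters' processing notes, TopHat2 (no version) and hg38 were used. What program computed FPKM, and on which annotation, is not given in the sources used here. Left out were 2919 loci with no name and 23 named as a date, and of several loci of a name the most abundant by mean FPKM was used. With 1 library per group no test was possible. The 8 members and the 22 lists were chosen with earlier results of these data known. Named were the members, a fixed set of partners, every list gene past 2-fold, and the 3 genes nearest in ratio to CDH1 and to ZEB1. Further list genes, the neighbours and the seed matches were chosen after values were seen. Positions came from GENCODE release 29 (GRCh38, the assembly of hg38) for 11723 genes compared, promoter and microRNA sequences from RefSeq. The calculation was tested on simulated data, with changes planted only in genes above a level of 5 FPKM and the same noise at all levels. That test does not cover low genes such as CDH1. Alternatives were the pseudocount, the filter, the scaling, summed loci, a 4-fold limit and the shorter motif CACCT. Python 3.11.15, pandas 2.3.3, NumPy 2.4.6 and matplotlib 3.10.9 were used.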

Additional observations from a re-analysis of the deposited data

How the results depend on the processing

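All 8 members kept their sign under every alternative that gave a value, and none was computed for CDH1 with a filter of 5 FPKM, which it does not pass. With a pseudocount of 5, CDH1 (0.82), TJP3 (0.93) and CALD1 (-0.996) lay within 2-fold, because a larger pseudocount shrinks low values. With 1 added to each FPKM no member reached 4-fold, at 1.92 for CDH1, -1.54 for ZEB1, 1.86 for CDS1, 1.64 for TJP3, -1.30 for CALD1, 1.68 for CD24 and 1.15 for SFN, while with a pseudocount of 0.1 CDH1 (2.95), CDS1 (2.11) and TJP3 (2.01) were past 4-fold. Genes past the limit were 407 higher and 335 lower at the settings reported, 614 higher and 478 lower with a pseudocount of 0.1, 142 and 136 with 5, and 76 and 60 past 4-fold. Scaling moved members by 0.08 or less. Scaling to equal sums without the MTRNR2L loci (16.2% of the resistant and 6.84% of the parental sum) was chosen after seeing the data. CACCT occurred in 5 of 7 windows of higher and 5 of 12 of ZEB1, CALD1 and VIM, and in 51.6% of all windows. By gene, CACCT was found for 4 of 4 higher members with a window and for 3 of 3 of ZEB1, CALD1 and VIM, so these groups did not differ. Of all genes with a window 56.2% had it. No paired analysis was possible because each group has 1 library. Depth is unknown, so values that rest on few reads cannot be marked.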

Other observations

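Some genes of the lists had further loci whose ratio differed from that of the locus used for the gene. The second locus of MLLT4, the table's name for afadin, which links nectins to actin, had 14.1 FPKM in resistant and 4.71 FPKM in parental cells (log2 ratio 1.40), while the locus used had 13.7 and 15.2 FPKM in resistant and parental cells (-0.14). OVOL2 had 4 loci, all above 0 in log2 ratio, at 0.55 to 1.40. A further locus of CTBP2 had 2.67 FPKM in resistant and 0.669 FPKM in parental cells (1.14). For ITGB1, the beta-1 integrin chain, 4 loci had log2 ratios of -1.05 to 1.22.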
